A study of Mus musculus with 12 samples.

Results

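The 6 postnatal day 3 (P3) kidneys of mixed CD1 and C57BL/6 background were compared by RNA sequencing, 3 from *let-7* KO mice and 3 from wild-type (WT) littermates, out of 12 kidneys in the whole series. The members were chosen by the genotype and strain labels alone (let7KO or WT, strain Mixed), and no measured value entered the choice. The *let-7* KO mice carry a constitutive, whole-body deletion of 3 genes, *let-7a1*, *let-7d* and *let-7f1*, so every cell of the kidney lacks these genes. The WT littermates carry none of the deletions, and both groups keep the other let-7 genes. Libraries 31, 32 and 33 are *let-7* WT 1, 2 and 3, and libraries 34, 35 and 36 are *let-7* KO 1, 2 and 3. By the labels, litter 1 holds WT 1, WT 2, KO 1 and KO 2, and litter 2 holds WT 3 and KO 3, so that litter 2 has 1 kidney of each genotype. The study used these data to look for possible let-7 target genes in the kidney, and the question addressed here is how strong that change is beside transcript length and litter.

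let-7 miRNAs are small RNAs that rise as tissues mature. They pair through their seed (bases 2 to 8) with complementary sites in the 3′ UTRs of target mRNAs and lower the level and translation of those mRNAs, and the RNA-binding proteins Lin28a and Lin28b block their processing. In the developing kidney, new nephrons arise from cap mesenchyme progenitors that surround the tips of the branching ureteric bud, and this pool is used up within days of birth in the mouse.

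The deleted genes lie together on the minus strand of mouse chromosome 13 (GRCm38), from 48536012 to 48538272. Their mature sequences (RefSeq, GRCm38.p6) are shown because they differ outside the seed and share it with the family members that remain. The seed is in capitals.
let-7a-5p (*let-7a1*, deleted, chr13:48538239-48538260): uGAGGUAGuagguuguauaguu
let-7f-5p (*let-7f1*, deleted, chr13:48537889-48537910): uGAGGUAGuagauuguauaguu
let-7d-5p (deleted, chr13:48536078-48536099): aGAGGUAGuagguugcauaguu
let-7c-5p (from *Mirlet7c-1*, retained, chr16:77599672-77599693): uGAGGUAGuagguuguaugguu
let-7i-5p (retained, chr10:122985698-122985719): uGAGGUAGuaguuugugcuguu
All 11 family genes with a mature sequence in the RefSeq table share the seed GAGGUAG, and *Mirlet7f-2* on the X chromosome encodes the same mature sequence as the deleted *let-7f1*. The seed pairs with CTACCTC in a target, with CTACCTCA when an A follows, and bases 2 to 7 followed by that A give TACCTCA. These matches are shown in capitals for genes the results turn on, each with its position in the 3′ UTR of 1 transcript (GENCODE M21).
*Hmga2*, 8-base match (chr10:120364216-120364239, minus strand): ttcaatttCTACCTCAgcatcagt
*Hmga2*, 7-base match (chr10:120362980-120363002, minus strand): cctcaataCTACCTCtgaatgct
*Cdc34*, 8-base match (chr10:79688119-79688142, plus strand): gcgacagaCTACCTCAccgaggtt
*Igf2*, TACCTCA match (chr7:142651443-142651465, minus strand): tggaggttTACCTCAcccccact
*Nox4*, TACCTCA match (chr7:87374388-87374410, plus strand): tccagctgTACCTCAgtcaaaca

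Counts per kidney summed to between 39926235 (KO 3) and 60813404 (KO 1), with a median of 57434244. Levels are given in CPM, the count of a gene relative to the TMM-scaled total of its kidney. Relative to the unscaled totals, 3 counts correspond to 0.0493 to 0.0751 CPM. The kidneys of a group all differed by far more than sampling noise, with 93.9 as the lowest chi-square per gene of any pair. The markers of kidney cell types fixed for the work were well represented, with 28 of 28 proximal tubule, 14 of 14 podocyte, 15 of 15 loop and distal tubule and 18 of 18 collecting duct genes past the count filter. Of 12 adrenal genes 4 passed, with a summed level of 2.03 to 5.76 CPM. *Xist* was high and the Y-linked genes were near 0 in WT 1 and KO 1, and the reverse held in the other 4 kidneys, so that each group had 1 kidney of the first kind, both from litter 1.

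The deleted genes themselves could be checked only weakly, because these libraries were made from total RNA with a kit that copies long transcripts and do not measure mature miRNAs. None of the 15 rows for let-7 genes and their host passed the count filter, and 6 had any count. *Mirlet7d* had 0, 19 and 35 counts in the 3 WT kidneys and 0 in each KO kidney. *Mirlet7a-1* had 0, 8 and 0 counts in WT and 0 in each KO kidney, and *Mirlet7f-1* had 0, 0 and 2 counts in WT and 0 in each KO kidney. *Mirlet7i*, which is not deleted, had 0, 12 and 9 counts in WT and 3, 0 and 12 in KO. The 3 deleted genes thus had no read in any KO kidney, but WT 1 also had none. *Lin28a* and *Lin28b* stayed below the filter, with at most 5 and 8 counts in a kidney.

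Across the 15500 genes tested, 423 (2.73%) had an unadjusted p under 0.01 in edgeR's quasi-likelihood test, the threshold used for these data by the study and the meaning of "called" here. Of these, 170 were higher in KO (1.1%) and 253 were lower (1.63%). The threshold admits about 1% of genes when nothing differs. Only *Sugct*, *Gpr137b-ps* and *Nox4*, 3 genes (0.0194%), stayed under 0.05 when p was adjusted by the Benjamini-Hochberg method, all 3 lower and 0 higher, while 1681 genes had an unadjusted p under 0.05. DESeq2 and the edgeR exact test gave 161 and 111 genes at that adjusted threshold. In 413 of the 423 called genes every KO kidney lay beyond every WT kidney, and this held for 2605 (16.8%) of all genes tested. Selection by p in the same kidneys favours this separation, so it adds no separate support. When counts were scaled by library totals alone, the share of calls that were higher in KO went from 40.2% to 26.4%, with 110 higher and 306 lower. In 10 fits, the one reported, litter as a replicate block, 2 corrections for transcript length and the 6 that leave out 1 kidney, 65 genes were called every time with the same sign, 17 higher and 48 lower. Calls named below that are not said to be among these 65 were lost in at least 1 of the 10 fits.

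*Sugct* (ENSMUSG00000055137.7), which encodes a mitochondrial CoA-transferase of glutarate metabolism, measured 148, 70.0 and 64.9 CPM in the WT kidneys and 10.3, 8.33 and 10.3 CPM in the KO kidneys. All 3 KO kidneys sat far below the lowest WT kidney, in both litters. The log2 fold change was -3.29 (SE 0.34, edgeR adjusted p = 0.0129). *Gpr137b-ps* (ENSMUSG00000097715.2), a pseudogene copy of the lysosomal membrane protein gene *Gpr137b*, measured 40.4, 30.6 and 29.6 CPM in WT and 4.80, 2.82 and 4.55 CPM in KO. Its log2 fold change was -3.05 (SE 0.32, edgeR adjusted p = 0.0129). The parent gene *Gpr137b* did not pass the test (log2 fold change -0.15, SE 0.22), with 42.1, 66.5 and 54.7 CPM in WT and 53.2, 46.6 and 47.4 CPM in KO, and reads shared between the copies make both values uncertain. *Nox4* (ENSMUSG00000030562.17), the NADPH oxidase that is abundant in kidney tubules and releases hydrogen peroxide, measured 100.2, 91.3 and 106 CPM in WT and 33.97, 36.5 and 34.2 CPM in KO. The kidneys of each group were tightly grouped, and the log2 fold change was -1.51 (SE 0.18, edgeR adjusted p = 0.0259).

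With litter as a replicate block none of these adjusted p values stayed under 0.05, although all 3 genes kept an unadjusted p under 0.01 with the same sign in each of 20 alternative fits. Over these alternatives the log2 fold change of *Sugct* lay between -3.55 and -2.81 and its adjusted p (edgeR or DESeq2) between 8.77e-21 and 0.174. For *Gpr137b-ps* the log2 fold change lay between -3.22 and -2.84 and the adjusted p between 5.41e-16 and 0.218. For *Nox4* the log2 fold change lay between -1.58 and -1.37 and the adjusted p between 9.93e-11 and 0.558.

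**Figure D1:**
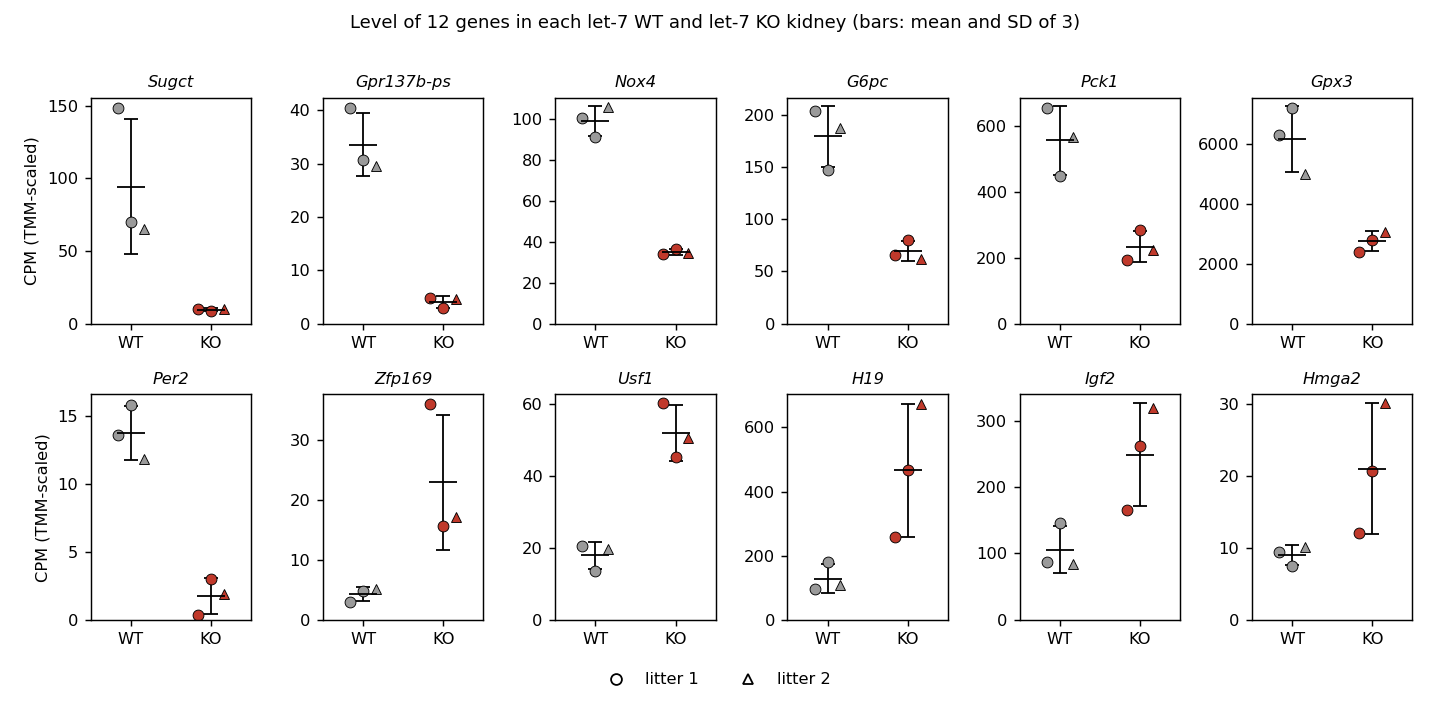
Level in TMM-scaled CPM (vertical axis, from 0) of 12 genes in each *let-7* WT (grey) and *let-7* KO (red) kidney, with circles for litter 1, triangles for litter 2, and bars for the mean and SD of 3 kidneys. *Sugct*, *Nox4*, *G6pc* and *Per2* show 3 KO kidneys below all WT kidneys, while *H19*, *Igf2* and *Hmga2* show KO kidneys spread widely above them.

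A set of genes of proximal tubule metabolism and transport was lower in KO, while 19 of the 28 proximal tubule markers were not called. The proximal tubule reabsorbs most of the glucose, amino acids and phosphate filtered by the kidney and is a site of glucose synthesis. Of its 28 tested markers 9 were called lower and 0 higher (32.1%, against 2.73% of all genes), and the median log2 fold change of the list was -0.33 (all genes, -0.0229), with 8 of 28 positive. The list median was -0.47 in litter 1 and -0.15 in litter 2. Like every list used here, this one was chosen with earlier results of these data known, so its counts are a description and no separate support. The summed level of the list overlapped between groups, at 11200, 9556 and 9082 CPM in WT and 7516, 9267 and 10170 CPM in KO. Other cell type lists had medians as low or nearly so, at -0.57 for leukocytes, -0.38 for the loop and distal tubule and -0.29 for podocytes. *Pck1* (phosphoenolpyruvate carboxykinase, a rate-limiting enzyme of gluconeogenesis) measured 655, 447 and 567 CPM in WT and 193, 285 and 223 CPM in KO, with the highest KO kidney below the lowest WT kidney and a log2 fold change of -1.25 (SE 0.21, edgeR adjusted p = 0.171). *G6pc* (glucose-6-phosphatase, which completes gluconeogenesis) was not on the list and measured 204, 147 and 187 CPM in WT and 65.4, 80.05 and 62.3 CPM in KO (log2 fold change -1.37, SE 0.19, edgeR adjusted p = 0.103), and it was among the 65. The other called members were the fatty acid CoA ligase gene *Acsm2* (log2 fold change -1.17), the sulfate carrier *Slc13a1* (-1.12), the glucose carriers *Slc5a2* (-0.998) and *Slc2a2* (-0.82), the lactate carrier *Slc5a12* (-0.95), the amino acid carriers *Slc7a7* (-0.87) and *Slc7a9* (-0.66), and the organic anion carrier *Slc22a8* (-0.64). Of these 10 genes, each had its 3 KO kidneys below its 3 WT kidneys. This held for 252 of the 253 genes called lower, where 16.8% of all genes did not overlap in either direction. Selection by p favours it, so it adds no separate support.

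The other proximal tubule genes went both ways without passing the test. *Lrp2*, the endocytic receptor megalin, did not pass the test, at 379 ± 35.4 CPM in WT and 347 ± 30.03 CPM in KO (mean ± SD, n = 3 each; log2 fold change -0.13, SE 0.16). The phosphate carrier *Slc34a1* measured 1785, 1513 and 1658 CPM in WT and 1040, 1226 and 1390 CPM in KO (log2 fold change -0.44, SE 0.17), with all KO kidneys below all WT kidneys. In the other direction, *Cyp2e1*, a cytochrome P450 gene, went from 1.27 to 4.87 CPM on average with all KO kidneys above all WT kidneys (log2 fold change 1.94, SE 0.71, edgeR adjusted p = 0.388), and *Ggt1*, gamma-glutamyltransferase, from 491 to 688 CPM (log2 fold change 0.48, SE 0.20, edgeR adjusted p = 0.416). *Kap*, an androgen-responsive kidney gene, measured 709, 661 and 182 CPM in WT and 558, 882 and 1196 CPM in KO and overlapped between groups. The list's median length was 3504 bases, near the 4224.5 bases of all genes, and 7 members were called after the length trend was removed, 8 with length slope as a covariate and 8 with litter as a block. Leaving out 1 kidney gave 7 members called without WT 2, 6 without KO 2, 5 without WT 1, WT 3 or KO 3, and 4 without KO 1, where 3 were lower and 1 higher. *Slc2a2* was the member not called with the block (log2 fold change -0.84, edgeR adjusted p = 0.498), and *Pck1*, *Acsm2* and *Slc5a12* were among the 65. In the litter 1 kidneys alone, an alternative chosen after the data were seen, 6 were called, all lower. In whole kidneys, fewer proximal tubule cells and less RNA of these genes per cell cannot be told apart.

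Other genes lower in KO in all 10 fits included further enzymes and carriers. *Gatm*, which makes the creatine precursor guanidinoacetate, measured 1239.6, 1142 and 1229.8 CPM in WT and 587, 648 and 604 CPM in KO (log2 fold change -0.97, SE 0.15, edgeR adjusted p = 0.129). *Slc7a8*, a basolateral amino acid exchanger, fell by 1.004 on the log2 scale, and *Enpp6*, a choline phosphodiesterase, measured 19.7, 14.3 and 18.3 CPM in WT and 3.88, 2.86 and 4.31 CPM in KO. *Angptl7*, a secreted angiopoietin-like protein, went from 78.6 ± 23.0 to 20.8 ± 6.95 CPM (mean ± SD, n = 3 each; log2 fold change -1.92, edgeR adjusted p = 0.135). *Mst1r* and *Btn2a2* had no count in any KO kidney against 353 and 345 counts over the WT kidneys. Set against a floor of 3 counts over the KO group, *Mst1r* was at least 104-fold and *Btn2a2* at least 101-fold lower, although 1 WT kidney held most of the *Btn2a2* signal (0.732, 4.77 and 0.576 CPM).

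Genes of oxidant handling were also among those lower. *Gpx3*, the secreted glutathione peroxidase that the proximal tubule releases into plasma, measured 6321, 7220.2 and 5013 CPM in WT and 2385, 2809 and 3052 CPM in KO, and the log2 fold change was -1.17 (SE 0.18, edgeR adjusted p = 0.129). The difference had a log2 ratio of -1.38 in litter 1 and -0.72 in litter 2, and the litters were not shown to differ by the interaction test. Of the 16 tested genes in the list of *Nox4*, redox and hypoxia genes, 3 were called, all lower (*Nox4*, *Gpx3* and the catalase gene *Cat*), against 1.63% of all genes called lower, with a list median of -0.50. The list is named for *Nox4* and was chosen with earlier results of these data known, so this count is a description and no separate support. *Cat* went from 232 ± 16.8 to 152 ± 25.01 CPM (log2 fold change -0.61, SE 0.18). *Gpx3* was among the 65, and without KO 1 there were 7 members called, 6 lower and 1 higher, against 2 without WT 1, WT 2, KO 2 or KO 3 and 3 without WT 3. In all, 7 of the 16 had every KO kidney below every WT kidney and 0 the reverse, where 16.8% of all genes did not overlap in either direction. Of these 7, *Hmox1*, *Gclc*, *Nqo1* and *Gclm* were not called, and the remaining members of the list overlapped between groups.

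Clock genes were the list with the lowest median, at -0.61, with 3 of 18 members called lower (1.63% of all genes) and 0 higher. *Per2*, a repressor of the circadian clock, measured 13.6, 15.8 and 11.9 CPM in WT and 0.373, 3.04 and 1.92 CPM in KO, a log2 fold change of -2.96 (SE 0.65, edgeR adjusted p = 0.325). *Hlf*, a PAR bZIP clock output factor, measured 15.8, 15.2 and 10.4 CPM in WT and 5.24, 6.78 and 6.95 CPM in KO, and *Bhlhe40*, another clock repressor, went from 107 ± 10.02 to 59.96 ± 12.7 CPM. In all, 8 members had every KO kidney below every WT kidney and 0 the reverse, where 16.8% of all genes did not overlap in either direction, while *Dbp*, *Per1* and *Nfil3* had positive log2 fold changes of 0.05 to 0.36 that did not pass the test. *Per2* was called in every alternative that tested it, whereas *Hlf* was not called with litter as a block (log2 fold change -1.11, edgeR adjusted p = 0.498). Without KO 2 the list had 1 member called, without WT 1 or KO 3 it had 2 and without KO 1 it had 5. Of the 20 immediate early genes, 1 (5%, against 2.73% of all genes) was called (*Ctgf*, lower, log2 fold change -0.68). The list median was -0.21 in litter 1 and -1.28 in litter 2. The hour at which each kidney was collected is not given in the sources used here, and its part in these differences was not tested.

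**Figure D2:**
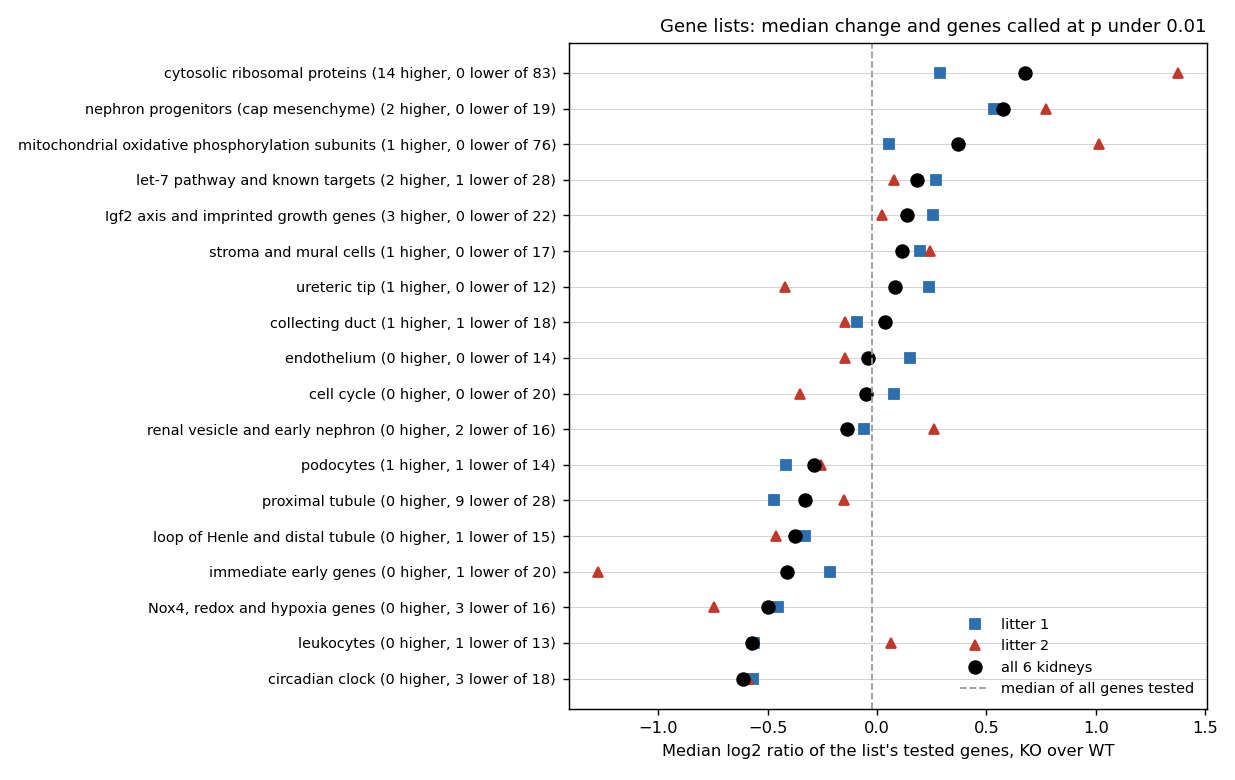
Median log2 ratio of KO over WT (horizontal axis) for the tested genes of each of 18 lists with at least 12 tested members, in all 6 kidneys (black circles), litter 1 (blue squares) and litter 2 (red triangles), with the median of all genes as a dashed line and the counts called beside each name. Clock, redox, proximal tubule, loop and distal tubule, podocyte and immediate early genes lie to the left in both litters, and the ribosomal protein and oxidative phosphorylation medians are far higher in litter 2 than in litter 1.

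Among known let-7 targets and pathway genes, 28 of 32 were tested, and the list median was 0.18. Of the 28, 2 were called higher and 1 lower (10.7%, against 2.73% of all genes). *Hmga2*, an architectural chromatin protein of embryonic cells and a classical let-7 target, measured 9.45, 7.54 and 10.1 CPM in WT and 12.04, 20.8 and 30.2 CPM in KO. Its 3 KO kidneys lay above its WT kidneys, KO 1 only narrowly, and the log2 fold change was 1.22 (SE 0.36, unadjusted p = 0.00711, edgeR adjusted p = 0.362). The call held with litter as a block and with the length trend removed, and was lost with library totals alone, with length slope as a covariate (log2 fold change 0.89), with a Y-linked covariate, in the litter 1 kidneys alone and without any 1 kidney other than KO 1. *Cdc34*, a ubiquitin-conjugating enzyme gene with the 8-base match printed above, went from 77.6 ± 6.94 to 117 ± 15.2 CPM (log2 fold change 0.59, SE 0.18), and this call was lost with litter as a block (edgeR adjusted p = 0.498) and with the length trend removed. *Myc* fell by 0.73 on the log2 scale, from 61.2, 82.1 and 65.5 CPM to 53.0, 34.4 and 38.5 CPM, and the call was lost with litter as a block (edgeR adjusted p = 0.498) and without any 1 kidney other than KO 1. With the block 1 member of the list was called, and without WT 1, WT 3, KO 2 or KO 3 in turn 0 were, against 4 with an unadjusted p under 0.05 and 4 and 3 called by DESeq2 and the exact test in all 6 kidneys. *Igf2bp1*, *Igf2bp2* and *Igf2bp3*, RNA-binding proteins of the same developmental program, had log2 fold changes of 0.38, 0.33 and 0.33 that did not pass, with overlapping kidneys.

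Across all transcripts, genes with a let-7 match in the longest annotated 3′ UTR had a median slightly below that of genes without one. Of 14586 tested genes with a 3′ UTR, 1710 (11.7%) held CTACCTC, 623 (4.27%) held CTACCTCA and 1731 (11.9%) held TACCTCA, on the transcript strand, and the first and the last of these counts both include the 8-base match. The median log2 fold change was -0.07 for the genes with CTACCTC and -0.02 for the 11933 genes with none of these, a shift of -0.05. 3′ UTRs with the match were longer (median 2431.5 bases) than those without (1088 bases). Within tertiles of 3′ UTR length the shift was 0.02 in the shortest, 0.04 in the middle and 0.0071 in the longest, and with the length trend removed it was 0.00067 over all genes. For the 8-base match the shift went from -0.03 to 0.02 when the length trend was removed. Among called genes the 7-base match was held by 14 of 165 (8.48%) that were higher and 26 of 248 (10.5%) that were lower, and the 15 called genes with the 8-base match were 5 higher (*Tma7*, *Tpm2*, *Hmga2*, *Cdc34* and *Ppp4c*) and 10 lower. A match is a description of letters and not a functional site.

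The *Igf2*-*H19* locus on chromosome 7 was higher in KO. *H19*, an imprinted noncoding RNA, measured 94.7, 179.75 and 109 CPM in WT and 259, 467 and 673 CPM in KO, a log2 fold change of 1.87 (SE 0.35, edgeR adjusted p = 0.239). *Igf2*, the imprinted fetal growth factor beside it, measured 87.1, 146 and 84.0 CPM in WT and 166, 262 and 319.6 CPM in KO, a log2 fold change of 1.23 (SE 0.28, edgeR adjusted p = 0.345). *H19*, *Igf2* and *Lsp1*, described below, were among the 65. In the litter 1 kidneys alone *Igf2* was not called, and 1 member of its list was. The KO kidneys of both imprinted genes lay above all WT kidneys, in the same order, with KO 3 highest. Their log2 ratios were 2.62 and 1.93 in litter 2 and 1.41 and 0.88 in litter 1, and with length slope as a covariate they were smaller but still called (1.18 and 0.70). *Cdkn1c*, an imprinted inhibitor of the cell cycle, went from 1412 ± 394 to 2441 ± 237 CPM (log2 fold change 0.79, SE 0.21). Of 22 tested imprinted and Igf axis genes these 3 were called (13.6%, against 2.73% of all genes), 0 were lower and the median was 0.14. *Igf1r*, *Igf2r*, *Mest*, *Peg3* and *Grb10* were not called. Within 1 Mb of *H19* and *Igf2*, a window chosen after the values were seen, 4 of 33 tested genes were called, all higher (12.1%, against 2.73% of all genes). Besides *H19*, *Igf2* and *Cdkn1c* these included *Lsp1*, an actin-binding protein gene, with 109.96, 92.1 and 107 CPM in WT and 168, 208 and 202 CPM in KO.

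The cap mesenchyme list had a median log2 fold change of 0.58 (all genes, -0.0229), with 16 of 19 tested genes positive. Of the 19, 2 were called higher and 0 lower (10.5%, against 2.73% of all genes). *Gdnf*, the growth factor with which the cap mesenchyme drives ureteric branching, measured 1.15, 1.02 and 1.498 CPM in WT and 3.25, 5.57 and 8.07 CPM in KO, a log2 fold change of 2.20 (SE 0.62, edgeR adjusted p = 0.362). *Tmem100*, a membrane protein of the progenitors, measured 7.64, 10.4 and 17.8 CPM in WT and 32.4, 22.4 and 24.2 CPM in KO (log2 fold change 1.14, SE 0.35). Among the fits that leave out 1 kidney, *Gdnf* was called only without KO 1, while *Tmem100* was called only without WT 3 and was also lost when the length trend was removed. DESeq2 called 3 members of the list and one fit of all 12 kidneys called 4, while both length corrections and library totals alone left 1, and without WT 1, WT 2, KO 2 or KO 3 in turn 0 were called. The defining progenitor factors *Six2* and *Eya1* did not pass the test, although *Eya1* was called in the fit of all 12 kidneys (log2 fold change 1.66). *Six2* measured 2.53, 7.20 and 8.91 CPM in WT and 9.79, 7.83 and 18.2 CPM in KO (log2 fold change 0.94, SE 0.51, edgeR adjusted p = 0.541), and *Eya1* measured 0.399, 0.844 and 2.67 CPM in WT and 4.54, 2.43 and 5.30 CPM in KO (log2 fold change 1.65, SE 0.84, edgeR adjusted p = 0.508). In both genes 1 KO kidney fell within the WT range, although the KO kidneys of each litter lay above the WT kidneys of that litter. Such separation within both litters, in either direction, was shared by 3526 of the 15500 genes tested. *Wt1* and *Lef1*, at 28.8 ± 11.8 and 37.3 ± 3.30 CPM in WT, had log2 fold changes of 0.08 (SE 0.30) and 0.06 (SE 0.21).

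The early nephron and ureteric tip lists were mixed. Of 16 renal vesicle genes 2 were called lower and 0 higher (12.5%, against 2.73% of all genes), and with litter as a block 0 were called. The Notch ligand *Dll1* went from 36.3 ± 11.3 to 15.2 ± 8.01 CPM (log2 fold change -1.26), and was not called with litter as a block (log2 fold change -1.22, edgeR adjusted p = 0.498). Of 12 ureteric tip genes 1 was called higher and 0 lower (8.33%, against the same 2.73%). The Gdnf receptor genes *Ret* and *Gfra1* were not called, and *Ret* ranged from 0.266 to 5.67 CPM in WT and from 0.302 to 12.3 CPM in KO.

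The other cell type lists had at most 2 genes called each. Calls made up 14.3% of podocyte, 11.1% of collecting duct and 7.69% of leukocyte genes, against 2.73% of all genes. They made up 6.67% of loop and distal tubule and 5.88% of stroma genes. Among podocyte genes 1 of 14 was higher (*Cdkn1c*) and 1 lower (*Col4a3*, log2 fold change -1.004), in loop and distal tubule 1 of 15 was lower (*Calb1*, -0.88), in collecting duct 1 of 18 was higher (*Krt18*, 0.87) and 1 lower (*Hsd11b2*, -0.91), and in stroma 1 of 17 was higher (*Des*, 0.97). With litter as a block 2 loop and distal tubule genes, 3 podocyte genes and 2 stroma genes were called. None of 14 endothelial genes, 20 cell cycle genes or 5 adipose and muscle genes was called in edgeR's test, DESeq2 or the exact test, and 0, 2 and 1 had an unadjusted p under 0.05. Of 13 leukocyte genes 1 was called, the invariant chain gene *Cd74*, with 71.2, 255 and 48.5 CPM in WT and 40.5, 38.9 and 26.97 CPM in KO, and it was not called without WT 2, the kidney far above the rest, nor by DESeq2. The summed leukocyte level was 254, 542 and 206.5 CPM in WT and 183 to 197 CPM in KO. Of 12 erythroid genes 3 were tested and none called by edgeR, DESeq2 or the exact test, with 0 at an unadjusted p under 0.05. The same held for the 4 adrenal genes, and 5 haemoglobin rows, genes with near-identical copies, had no count in any kidney.

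Transcript length moved with the comparison, with the wider gap in litter 2, which holds 1 kidney of each genotype. For each kidney the slope of a gene's log2 deviation from the 6-kidney mean on log2 length was taken, so that a negative slope means relatively fewer reads from long transcripts. It was 0.0575, -0.0411 and 0.140 in WT and 0.0425, -0.0777 and -0.121 in KO. The highest and the lowest belonged to WT 3 and KO 3, both of litter 2. The group difference was -0.104 (exact permutation test, two-sided, p = 0.2, where the smallest possible with 3 against 3 is 0.1), and it was -0.0258 in litter 1 and -0.261 in litter 2. In the shortest decile of genes (median 1175.5 bases) the median log2 fold change was 0.33, made up of 0.09 in litter 1 and 0.75 in litter 2, and in the longest decile (12160 bases) it was -0.13, with -0.06 and -0.33. Calls higher in KO made up 3.12% of the shortest decile and 0.195% of the longest, and calls lower made up 0.65% and 2.02%. The median length was 2460 bases for genes called higher and 4812 bases for genes called lower, against 4224.5 bases for all.

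**Figure D3:**
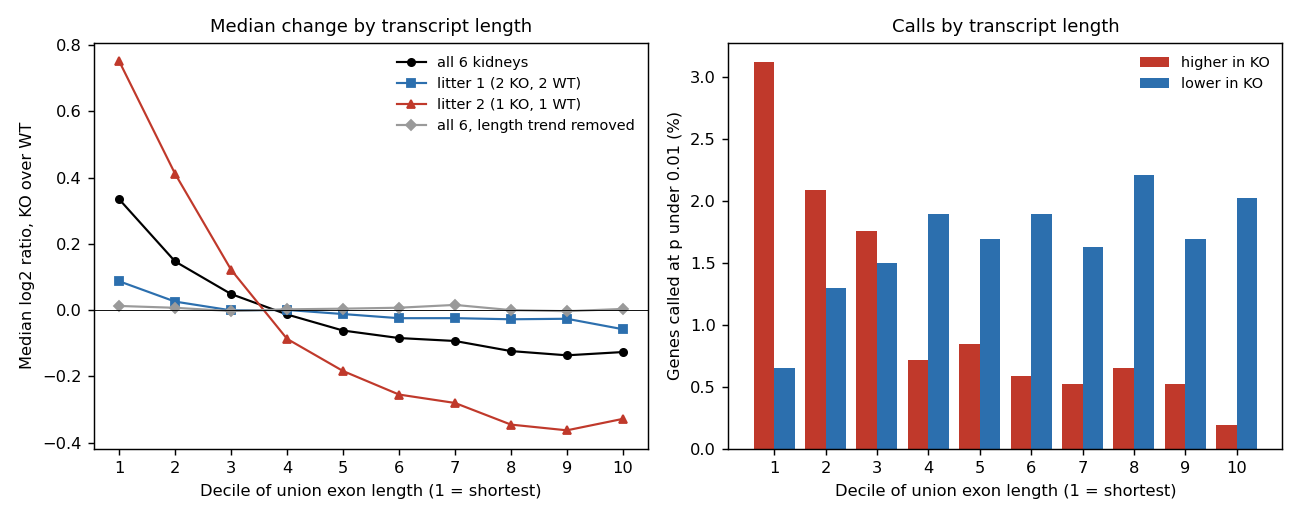
Left, median log2 ratio of KO over WT (vertical axis) by decile of union exon length, for all 6 kidneys, each litter, and after the per-kidney length trend was removed. Right, percent of genes called higher (red) and lower (blue) in each decile. The line of litter 2 falls from 0.75 to -0.33 while that of litter 1 stays between -0.06 and 0.09.

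Among the ribosomal protein genes, which build the ribosome and are short (median 1770 bases), the call depended on these choices. Of 83 tested, 14 were called higher and 0 lower (16.9%, against 2.73% of all genes), with a median log2 fold change of 0.67 and 82 of 83 positive. *Rpl14*, a large-subunit protein gene, measured 349, 362 and 297 CPM in WT and 444, 623 and 790 CPM in KO, and *Rpl5*, which also binds Mdm2, measured 395, 454 and 382 CPM in WT and 512, 817 and 957 CPM in KO. Both had KO 3 highest, and the list median was 0.29 in litter 1 and 1.38 in litter 2. With length slope as a covariate 0 members were called and the median was 0.21, with the length trend removed 16 were called with a median of 0.45, and with litter as a block 5 were called. Leaving out 1 kidney gave 1 member called without KO 3, 2 without WT 1, WT 3 or KO 2, 36 without WT 2 and 65 without KO 1, and in litter 1 alone 0 were called. DESeq2 and the exact test called 55 and 36, and many of these genes have near-identical pseudogene copies that make single values uncertain. The 76 oxidative phosphorylation genes, of median length 1718 bases, had a median of 0.37, 0.05 in litter 1 and 1.02 in litter 2. Of these 1 was called, *Atp5o*, which was higher (1.32%, against 2.73% of all genes). *Sugct*, *Nox4*, *Gatm*, *Pck1* and *H19* were called under both length corrections, which membership of the 65 requires.

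Litter as a replicate block reduced the calls from 423 to 288, with 87 higher and 201 lower, of which 263 were among the 423 with the same sign, and 0 genes had an edgeR adjusted p under 0.05 (1477 had an unadjusted p under 0.05). Length slope as a covariate also gave 288 calls, but only 158 (37.4%) of the 423 were among them, whereas removing the length trend of each kidney gave 445 calls and kept 324 (76.6%). With both litter block and length trend removal there were 356 calls, of which 266 were shared, and 3 had an adjusted p under 0.05. The test of whether the KO effect differed between litters called 150 genes at an unadjusted p under 0.01 (0.968%) and 0 after adjustment (1191 at an unadjusted p under 0.05), the lowest adjusted p being 0.645 in edgeR. All 423 called genes had the same sign in both litters, a property of 59.4% of all genes. The low p over these same kidneys that selected them favours this, so it is no separate test of agreement between litters. The calls depended strongly on single kidneys. Without WT 1 there were 196, without WT 2 375, without WT 3 209, without KO 2 164 and without KO 3 197, while without KO 1 there were 1292. In the litter 1 kidneys alone 138 genes were called, and 94 of the 423 were among them.

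**Figure D4:**
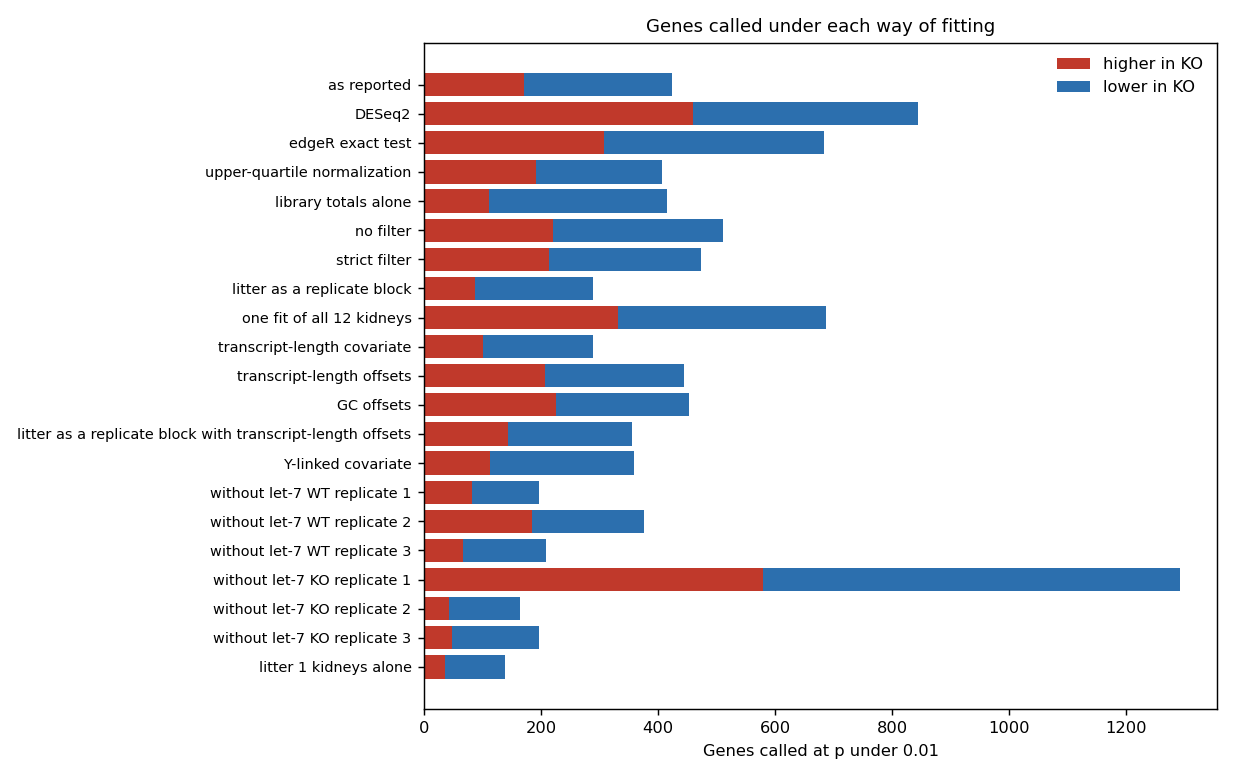
Number of genes called at an unadjusted p under 0.01 (horizontal axis, from 0) higher (red) and lower (blue) in KO, in the reported fit and in 20 alternatives. The fit without KO 1 has 1292 calls and those without WT 1, WT 3, KO 2 or KO 3 have 164 to 209.

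By position, calls were most frequent on chromosome 13, the chromosome that carries the deletion. There 31 of 584 tested genes were called (5.31%), the highest share of the 20 chromosomes compared, with 8 higher and 23 lower, against 2.63% of genes elsewhere. Of the 65 genes called in all 10 fits, 9 (13.8%) lay on chromosome 13, which holds 3.8% of the genes tested. These were *Sugct*, *Gpr137b-ps*, *Btn2a2*, *Hist1h2ae*, *Tpmt*, *Zfp169*, *Cdhr2*, *Arsb* and *Tmem171*. *Tpmt*, *Cdhr2*, *Arsb* and *Tmem171* are named here after their values were seen. *Zfp169*, a zinc finger gene 22.56 kb from the deleted genes, measured 2.96, 4.79 and 5.20 CPM in WT and 35.95, 15.7 and 17.1 CPM in KO, a log2 fold change of 2.41 (SE 0.42, edgeR adjusted p = 0.191), and it was the only one of 17 tested genes within 1 Mb to be called. The gene on the other side, *Ptpdc1* at 39.6 kb, was not called (log2 fold change -1.24, SE 0.53, edgeR adjusted p = 0.435). *Hist1h2ae*, a histone gene with near-identical copies, went from 15.1 ± 0.9999 to 40.9 ± 12.03 CPM, and *Tpmt*, thiopurine methyltransferase, measured 92.3, 82.3 and 61.7 CPM in WT and 138, 148 and 155 CPM in KO. Between 50 and 30 Mb toward the start of the chromosome, 6 of 50 genes were called (12%), including *Sugct* and *Gpr137b-ps*, and within 10 Mb of the deletion 10 of 138 were called (7.25%). Between these regions the share was 4.84%, and on the far side of the deletion it was 2.56% from 10 to 30 Mb, 4.35% from 30 to 50 Mb and 3.49% beyond, so that it did not fall evenly with distance. KO kidneys share the deleted segment and the chromosome 13 sequence linked to it, and in mice of mixed background the effect of the deletion and that of linked sequence cannot be told apart.

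**Figure D5:**
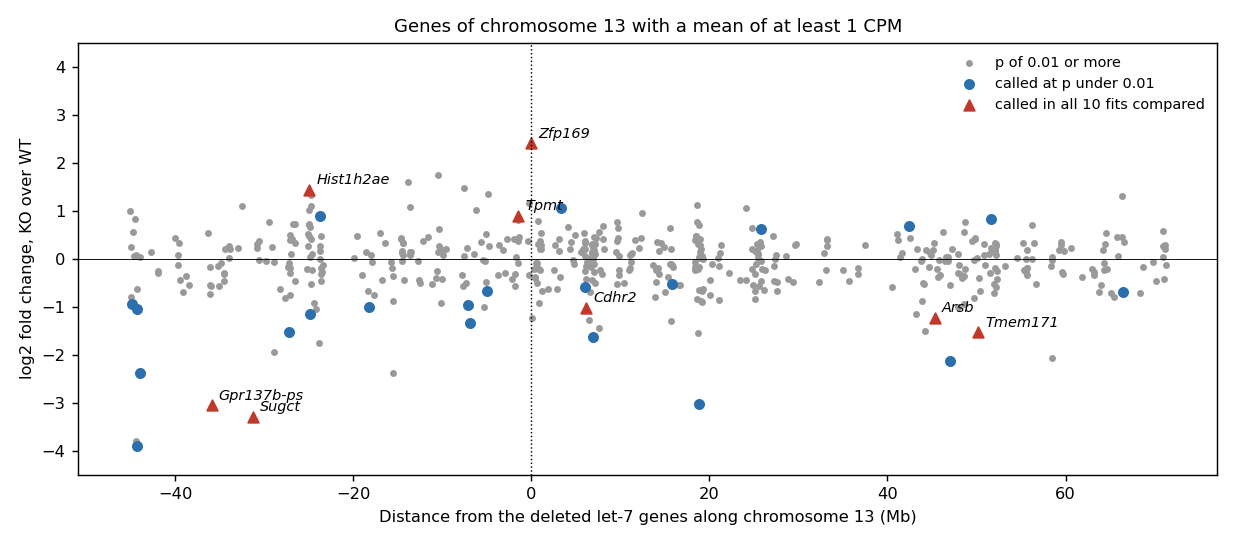
log2 fold change of KO over WT (vertical axis) for 519 genes of chromosome 13 with a mean of at least 1 CPM, by distance in Mb from the deleted *let-7* genes (0, dotted line), in grey when not called, blue when called and red when called in all 10 fits compared. *Btn2a2*, at 0 in KO, falls outside the axis. *Zfp169* stands at the deletion, and *Sugct* and *Gpr137b-ps* lie more than 30 Mb away.

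Other genes called higher in all 10 fits were on other chromosomes. *Usf1*, a transcription factor of metabolic genes, measured 20.4, 13.6 and 19.5 CPM in WT and 60.2, 45.1 and 50.4 CPM in KO, with every KO kidney above every WT kidney in both litters and a log2 fold change of 1.54 (SE 0.25, edgeR adjusted p = 0.135). *Pzp*, a protease inhibitor of the alpha-2-macroglobulin family, was near 0 in WT (0.133, 0 and 0.0329 CPM) and measured 5.71, 6.16 and 5.19 CPM in KO (log2 fold change 6.61, SE 1.13, edgeR adjusted p = 0.191). *Serpinf2*, the plasmin inhibitor alpha-2-antiplasmin, went from 71.8 ± 9.55 to 154 ± 32.99 CPM, and *Nts*, neurotensin, from 42.6 ± 9.88 to 100 ± 24.1 CPM. *Hebp1*, a heme-binding protein gene, went from 71.8 ± 14.2 to 138 ± 13.7 CPM. In *Serpinf2* the highest kidney was KO 3, and in *Nts* it was KO 2.

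Some of the widest fold changes belonged to genes of low level. *Pcdhgb2*, a clustered protocadherin gene whose exons are shared with its neighbours and whose value is therefore uncertain, measured 1.75, 2.53 and 2.09 CPM in WT and 0.0812, 0.0178 and 0.0266 CPM in KO (log2 fold change -5.56, SE 1.27, edgeR adjusted p = 0.345), and it was among the 65. *Pappa2*, a protease that cleaves Igf-binding proteins, measured 4.46, 10.7 and 13.7 CPM in WT and 1.79, 0.195 and 1.01 CPM in KO (log2 fold change -3.26). In both genes all KO kidneys lay below all WT kidneys. The other genes of this kind that were lower were *Zfp429*, a zinc finger gene (log2 fold change -3.02), and *Marcksl1-ps4*, a pseudogene whose reads may come from its parent (-3.91), which was near 0 in WT 3 as well, at 0.395 CPM. Among the genes that were higher, *Actg2*, the gamma actin of smooth muscle, measured 6.52, 9.30 and 4.84 CPM in WT and 25.5, 25.1 and 12.1 CPM in KO, and was among the 65. *Crabp1*, a retinoic acid-binding protein gene (log2 fold change 1.95), *Defb29*, a defensin gene (1.55), and *Tnnt1*, a slow skeletal troponin gene (1.49), were each lost in at least 1 of the 10 fits, and in *Crabp1* and *Defb29* KO 3 stood far above the other KO kidneys.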

How the data were processed

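Whole-kidney RNA, extracted with Trizol and treated with DNase, was converted to cDNA libraries with a SMARTer low-input kit and read on an Illumina instrument. The authors deposited raw counts, whole numbers of reads per gene symbol, 1 file per kidney, without normalization. The submitters' processing notes name cutadapt, TopHat2 2.0.9, Bowtie2, SAMtools 0.1.19, HTSeq and mm10, with no roles or settings. How reads shared by near-identical genes were counted is not given in the sources used here.

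The 6 kidneys were fitted with edgeR 4.0.16 in R 4.3.3 (filterByExpr, minimum count 10 and total 15, TMM, quasi-likelihood test, Benjamini-Hochberg adjustment). The standard error is the log2 fold change over the square root of F. The study describes the 3 kidneys of a group as biological replicates from 2 litters. Union exon lengths, 3′ UTRs and positions came from GENCODE M21 (GRCm38), to which 98.2% of 24062 symbols matched. Length trends were removed as lowess (span 0.3) offsets per kidney. Litter 2 has 1 kidney per genotype. Litter pairs kidneys through its number in the labels, although correlations of deviations between same-litter kidneys of the 2 groups lay between -0.109 and 0.0713. Scripts were tested on simulated data.

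Genes named are the 9 the study turns on, those with an adjusted p under 0.05, the 10 highest and 10 lowest of called genes with kidneys that do not overlap and at least 1 CPM, up to 4 called genes of each list (otherwise 2), the first 10 each way called in all 10 fits, and called genes within 1 Mb of the deletion. Some genes that the rule names are not reported here. Other genes are named only as members of a list or window or were chosen after their values were seen. The gene lists and their members were chosen with earlier results of these data known. The 23 lists, the DESeq2 1.42.0 and other alternatives are reported above or below.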

Additional observations from a re-analysis of the deposited data

Results flagged for a closer look

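In 2 of 76 genes examined, those named by rule, the litters moved in opposite directions, both KO kidneys of litter 1 lying on 1 side of both WT kidneys and KO 3 on the other side of WT 3. These differences between litters were not tested beyond the interaction test, in which no gene had an adjusted p under 0.05 in edgeR (1191 had an unadjusted p under 0.05). *Wt1*, the podocyte and progenitor factor, had 21.4 and 22.5 CPM in WT against 24.8 and 31.96 CPM in KO in litter 1 (log2 ratio 0.36) and 42.5 against 34.8 CPM in litter 2 (log2 ratio -0.28). *Chga*, an adrenal medulla marker counted to show other tissue, had 0.682 and 2.32 CPM in WT against 0.649 and 0 CPM in KO in litter 1 (log2 ratio -3.05), and 0.412 against 1.41 CPM in litter 2 (log2 ratio 1.69).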

How the results depend on the processing

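Against 423 genes called (170 higher and 253 lower in KO), DESeq2 called 844 (460 and 384), the edgeR exact test 684 (308 and 376) and one fit of all 12 kidneys 687 (331 and 356). Fewer genes were called higher with library totals alone (110), litter as a replicate block (87), length slope as a covariate (100) and a Y-linked covariate (112). Leaving out 1 kidney gave 164 (without KO 2) to 1292 (without KO 1) calls, 42 to 579 higher and 114 to 713 lower. The litter 1 kidneys alone, chosen after the data were seen, gave 138 (36 and 102). An adjusted p under 0.05 left 3 (0 and 3). Of the 423, those with a change of 1 or more on the log2 scale numbered 152 (40 and 112). The shift of genes with a let-7 match, -0.0514, was 0.0248, 0.0417 and 0.00705 in short, middle and long 3′ UTRs and 0.000674 with the length trend removed. The causes of these changes were not tested.

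None of the 60 named genes that were called changed sign in any alternative that tested it. Among named genes that were not called, *Hsd3b1* (-1.14) was at 1.80 with the length covariate, 0.21 in litter 1 alone and -2.13 to 0.22 without 1 kidney. *Lef1* (0.06) was at -0.0074 with library totals, -0.0011 in litter 1 alone and -0.0026 to 0.15 without 1 kidney. *Wt1* (0.08) was at -0.0103 with library totals and -0.0888 to 0.475 without 1 kidney. Without 1 kidney *Chga* (-0.73) ranged from -1.81 to 0.34 and *Eif2s3y* (-0.47) from -1.16 to 0.11. Of these 60 the litter block lost 7, the length covariate 22, the length offsets 5 and single kidneys 5 to 24. With 3 kidneys a group, 1 litter of 1 kidney per genotype and a permutation p of at least 0.1, these data limit how far genotype, litter and length can be separated.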

Other observations

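The genes with the lowest p in the test of a litter difference, chosen after their values were seen, were led by *Kap*, whose log2 ratio was 0.04 in litter 1 and 2.71 in litter 2, with WT 3 at 182 CPM against 558 to 1196 CPM in the other kidneys (edgeR adjusted p = 0.645). *Fos*, an immediate early gene, had 2.20, 2.94 and 18.98 CPM in WT and 18.6, 7.88 and 2.21 CPM in KO, so that KO lay above WT in litter 1 and below it in litter 2. WT 3 also had the highest length slope and KO 3 the lowest, and what part this had in these values was not tested.

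*Steap4*, a metalloreductase gene, measured 15.5, 5.10 and 8.74 CPM in WT and 1.40, 0.1598 and 0.479 CPM in KO, a log2 fold change of -3.84 (SE 0.81, edgeR adjusted p = 0.296), and it was called in each of the 19 alternatives that tested it.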
